A study of Mus musculus with 8 samples.

Results

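Peaks of N6-methyladenosine (m6A) in very long genes were drawn from 1 peak table of Setd2 knockdown cells and 1 of control cells. A gene counted as very long when its interval spanned 200000 nt or more in the RefSeq annotation of mm10 (GRCm38.p6), and a peak was a member when its Ensembl identifier was placed in such a protein-coding gene by location and, where RefSeq's start table gave it, by strand. The members were 1320 of 27612 peaks in the knockdown table (4.78%) and 1191 of 25815 peaks in the control table (4.61%), 2511 peaks in all. They lay in 441 of the 990 very long protein-coding genes, 106 of which were placed by location only.

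The cells were mouse embryonic stem cells carrying a construct against Setd2 that doxycycline (Dox) switches on. Dox cells received 1 µg/ml for 4 days and control cells none, and cells lacking the construct were not given Dox, so Dox and the knockdown cannot be told apart. All cells grew without feeders as spheres in serum-free medium with 1 µM PD0325901 (against MEK), 1000 U/ml LIF and 3 µM CHIR99021 (against GSK3). Both replicates of antibody-enriched (IP) and input RNA, 8 libraries in 4 groups of 2, were pooled into 1 table per condition, so the conditions were compared without a replicate check, without a test and at unknown depth.

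m6A is written on nascent messenger RNA by a methyltransferase complex around METTL3 and METTL14, and antibody mapping usually finds it near stop codons, in long internal exons and in 3′ untranslated regions. SETD2 places trimethylation on lysine 36 of histone H3 along the bodies of transcribed genes, and METTL14 is known to bind that mark. Very long genes consist almost wholly of introns, which are spliced out of the messenger RNA, so peaks far apart on the chromosome can be close neighbours in the transcript.

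All 10 naive pluripotency markers carried a peak in the Dox table and 9 of 10 in the control table, where Prdm14 had none. Of 6 fibroblast markers 1 had a peak in each table, and of 6 neuronal markers 2 had. Setd2 itself had 6 Dox and 10 control peaks, which give no measure of its transcript level.

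The starts of 6 very long genes are shown because control members at the 5′ end lacked a Dox peak most often. Each line gives 70 bases before and 30 after a RefSeq start no more than 500 nt from the 5′ boundary of the interval, and capitals mark bases inside the exonic blocks of a control peak. The first 3 control peaks overlapped a Dox peak and the last 3 did not. The 5′ sequences are RefSeq's, on GRCm38.p6, at chr11:107470691-107470790 (minus strand) for Pitpnc1, a phosphatidylinositol transfer protein, chr2:68861371-68861470 (plus) for Cers6, a ceramide synthase, and chr15:86214389-86214488 (plus) for Tbc1d22a, a protein with the TBC domain of Rab GTPase-activating proteins. The others are chr13:77708620-77708719 (plus) for Fam172a, chr2:142901435-142901534 (minus) for Kif16b, a kinesin, and chr4:145194976-145195075 (minus) for Vps13d, a lipid transfer protein.
Pitpnc1: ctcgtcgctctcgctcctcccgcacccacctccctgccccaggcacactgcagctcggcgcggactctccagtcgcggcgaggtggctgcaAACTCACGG
Cers6: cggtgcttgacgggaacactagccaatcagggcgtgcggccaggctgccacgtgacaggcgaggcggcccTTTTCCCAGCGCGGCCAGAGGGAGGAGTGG
Tbc1d22a: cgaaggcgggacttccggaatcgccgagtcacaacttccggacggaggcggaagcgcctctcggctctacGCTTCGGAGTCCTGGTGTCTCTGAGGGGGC
Fam172a: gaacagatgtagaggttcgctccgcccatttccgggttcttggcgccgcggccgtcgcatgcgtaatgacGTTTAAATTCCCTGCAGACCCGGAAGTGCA
Kif16b: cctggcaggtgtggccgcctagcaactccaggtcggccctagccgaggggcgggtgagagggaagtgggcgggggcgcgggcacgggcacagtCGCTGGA
Vps13d: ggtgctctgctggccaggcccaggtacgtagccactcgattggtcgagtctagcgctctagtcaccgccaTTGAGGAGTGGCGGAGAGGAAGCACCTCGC

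The 50 transcribed bases after the start were searched for GGAC, the core of the most common m6A consensus, and for its reverse complement GTCC. Among 26 windows under a 5′ peak of a very long gene, 24 of them within 500 nt of the interval's 5′ end, GGAC stood in 3 (11.5%, interval 2.45 to 30.2%) and GTCC in 4 (15.4%). Over all 1116 windows at starts of very long genes GGAC stood in 18.1% and GTCC in 18.1%, and over all 32851 windows in 18.9% and 17.4%. The interval of the 26 windows covers these shares. The 3 windows with GGAC belong to Adk, Nubpl and Tanc1. An A stood at the start itself in 7 of the 26 windows (26.9%), against 34.4% of all windows. Ranges given after a percentage are exact (Clopper-Pearson) 95% intervals, which cover counting error only and treat the peaks of 1 gene as independent, which they are not.

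Very long genes carried a peak less often than genes of middle length. A peak in either table was found in 441 of 990 very long genes (44.5%, 41.4 to 47.7%), against 61.2% of genes of 100 to 200 kb and 61.7% of genes of 50 to 100 kb. Over all genes the share was 48.8%, with 59.4% at 20 to 50 kb, 49.9% at 3 to 20 kb and 16.4% under 3 kb. The share was lower in each longer class: 52% at 200 to 300 kb, 43.6% at 300 to 500 kb, 33.3% at 500 to 1000 kb and 27.1% at 1000 kb or more, where 16 of 59 genes had one. Whether a gene without a peak was not transcribed or not methylated cannot be told apart from peak tables. The 441 genes had a median length of 297265 nt, and the longest was Dmd, which encodes dystrophin, at 2390387 nt.

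Genes of the cytoskeleton and cell polarity were the fixed list with the most carriers for its size. Among its 29 members of 200 kb or more, 23 had a peak, 21 of them in both tables, and they held 151 Dox and 137 control peaks. The transcription and chromatin regulators had a peak in 25 of 46 members, 18 of them in both tables, with 97 Dox and 92 control peaks. Adhesion molecules, most of which are known from neurons, had one in 13 of 46 members, 9 of them in both tables. Ion channels and transmitter receptors had one in 8 of 25, kinases, phosphodiesterases and small G protein regulators in 11 of 26, and genes of common fragile sites in 7 of 13. Axon guidance genes had one in 6 of 17, RNA-binding proteins in 6 of 13, receptor tyrosine phosphatases and kinases in 5 of 12, heparan sulfate genes in 4 of 7 and ubiquitin ligases and partners in 4 of 6. These counts stand against 44.5% of all very long genes.

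Most of the genes with peaks had them in both tables. Of the 441 genes, 338 had a peak in both (76.6%, 72.4 to 80.5%; 79.9% of all identifiers in the tables), 53 in Dox only (12%; 11.1% of all identifiers) and 50 in control only (11.3%; 8.92% of all identifiers). More peaks in Dox than in control were counted in 186 genes (42.2%; 34.1% of all identifiers), fewer in 139 (31.5%; 26.2% of all identifiers) and equal numbers in 116 (26.3%; 39.7% of all identifiers). That order depended on weak peaks. When only a log10 FDR of -5 or lower counted, 67 of 283 genes had more in Dox (23.7%) and 121 had fewer (42.8%), against 23.9% with more and 30.7% with fewer over all identifiers.

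The median number of peaks per gene was 2 in each table. Per gene with a peak the mean was 3.38 in Dox and 3.07 in control, against 2.45 in Dox and 2.38 in control for genes under 200 kb. A single peak was held by 121 genes in Dox and 137 in control, and 5 or more by 96 genes in Dox and 91 in control. Across the 441 genes the Dox and control numbers were related with a Spearman rho of 0.747, and gene length and the summed number with a rho of -0.193. Both are descriptions across genes of the same pooled libraries. The 8 genes with most peaks held 129 Dox peaks (9.77%) and 126 control peaks (10.6%).

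**Figure D1:**
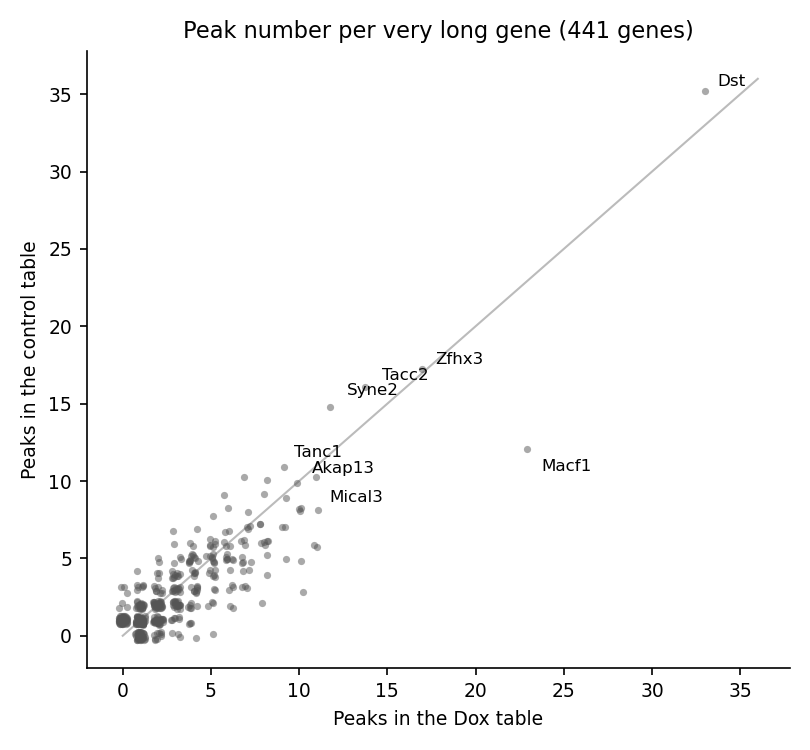
Number of m6A peaks per very long gene in the Dox table (horizontal axis) and in the control table (vertical axis), 1 point per gene for 441 genes, shifted slightly at random so that points do not hide each other, with the line of equal numbers. Dst lies at 33 Dox and 35 control peaks, and Macf1 lies far below the line at 23 Dox and 12 control peaks. Of those Macf1 peaks, 13 in Dox and 11 in control have a log10 FDR of -5 or lower.

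Spectraplakins, giant proteins that tie microtubules, actin and intermediate filaments together, led the ranking. Dst (chr1:33907888-34308662, plus strand) had 33 peaks in Dox and 35 in control. Their median folds of IP over input were 3.72 in Dox and 3.76 in control, and the highest were 17.4 in Dox and 28.3 in control. All but 2 of these peaks, a weak Dox peak at 51.4% of the interval and a weak control peak at 24.6%, had their midpoint beyond 63% of the interval. In Dox 18 of the Dst peaks passed a log10 FDR of -5, against 27 in control.

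Macf1 (chr4:123349633-123687802, minus strand), the other spectraplakin of the list, had 23 peaks in Dox and 12 in control when all peaks counted. At a log10 FDR of -5 or lower it had 13 in Dox and 11 in control, so the difference lay mostly in weak peaks. No control peak overlapped 12 of the Dox peaks, whereas 1 of the control peaks lay apart from all Dox peaks. Of those 12, 7, each a single block, fell in chr4:123471942-123476050, at 62.6% to 63.8% of the interval. Their folds ran from 1.91 to 3.65 and their log10 FDR from -5.12 to -1.64, and only 1 of the 7 passed -5. The strongest Macf1 peak lay at 67.6% in both tables, with a fold of 7.5 in Dox and 13.2 in control.

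Zfhx3, a zinc finger homeobox transcription factor on chr8:108279311-108961636, had 17 peaks in each table. Its median fold was 3.58 in Dox and 5.98 in control. A 1-block peak at 75.4% of the interval reached a fold of 17.4 in Dox and 52.3 in control, with log10 FDR of -19.2 in Dox and -51.5 in control. In the last 10% lay 12 of its Dox and 13 of its control peaks.

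Tacc2, a coiled-coil protein of centrosomes and microtubules on chr7:130553009-130767705, had 14 peaks in Dox and 16 in control. In it 8 Dox peaks and 9 control peaks stood at 32.1% to 34.3% of the interval, each in 1 block. Its strongest peak, near 82% of the interval, had an FDR given as 0 in both tables, with a fold of 7.31 in Dox and 10.5 in control. Peaks of Tacc2, like those of Macf1, came in dense runs separated by long stretches without any.

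Syne2, a nesprin of the nuclear envelope, had mostly weak peaks. It had 12 peaks in Dox and 15 in control, of which 2 in Dox and 5 in control passed a log10 FDR of -5. No counterpart was found for 4 Dox and 7 control peaks. Mical3, an actin-oxidising enzyme, had 11 Dox and 10 control peaks, and a peak near its 3′ end had folds of 5.92 in Dox and 34.5 in control. Akap13, an anchor of protein kinase A, had 10 peaks in each table, and Tanc1, a scaffold protein, 9 in Dox and 11 in control. Chd9, a chromatin remodeller singled out after its values were seen, had 10 peaks in Dox and 3 in control. Of these, 2 in Dox and 2 in control passed a log10 FDR of -5.

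**Figure D2:**
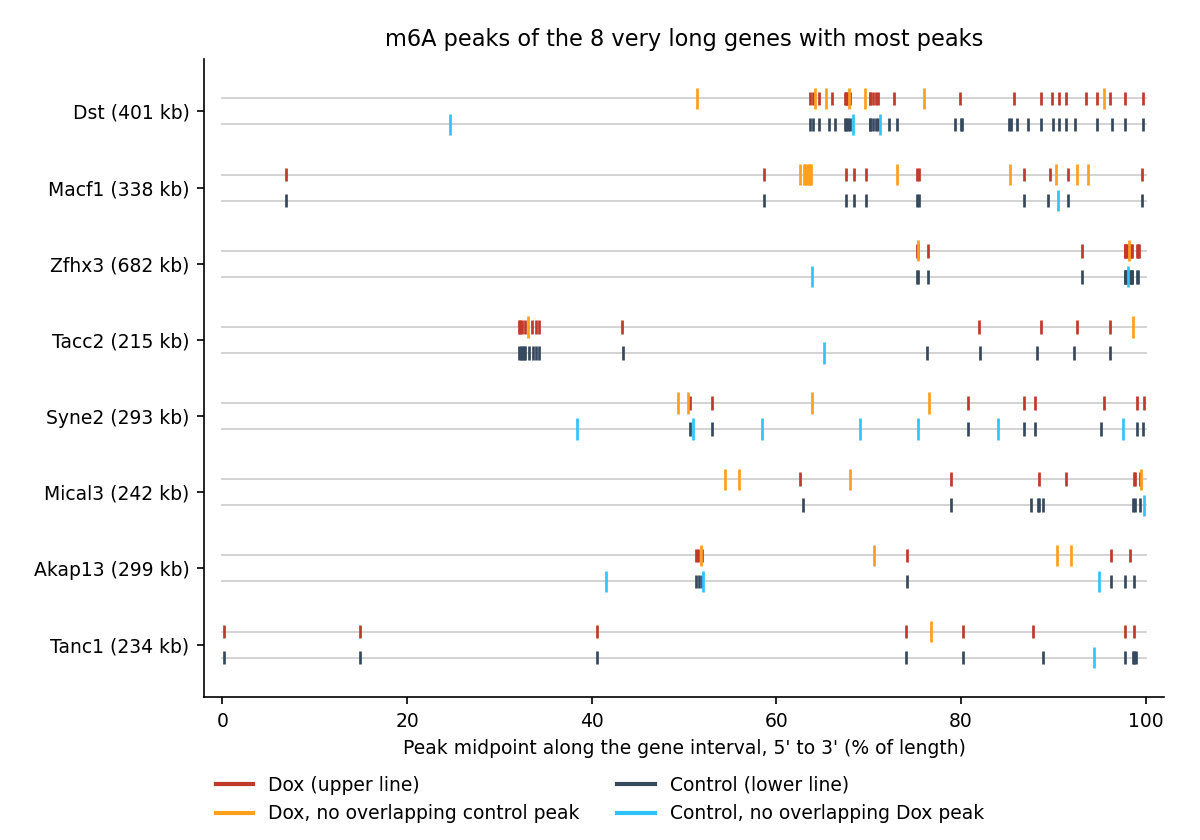
Peak midpoints along the gene interval, from 5′ to 3′ in percent of its length, for the 8 very long genes with most peaks, with Dox peaks on the upper line and control peaks on the lower line of each gene. Bright ticks have no overlapping peak in the other table: 12 of 23 Dox peaks of Macf1, for example, against 1 of 12 control peaks.

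Folds of the members were lower in the Dox table than in the control table, as over all peaks. The median fold was 3.72 in Dox and 5.21 in control, and over all peaks 3.51 in Dox and 4.62 in control. A fold of at least 4 was reached by 610 Dox members (46.2%; 41.3% of all Dox peaks) and 776 control members (65.2%; 57.8% of all control peaks). At the same time fewer members were strongly called. A log10 FDR of -5 or less was met by 551 Dox members (41.7%, 39.1 to 44.5%; 56.9% of all Dox peaks) and 635 control members (53.3%, 50.4 to 56.2%; 64.3% of all control peaks).

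Part of the members with a high fold had a weak FDR. A fold of 8 or more was seen in 166 Dox members (12.6%; 9.4% of all) and 375 control members (31.5%; 26.8% of all). Of these, 117 in Dox and 136 in control had a log10 FDR above -5, and they took 19 distinct fold values in Dox and 17 in control. High folds of weak members thus came in coarse steps. How often a fold of 8 or more came with a weak FDR over all peaks was not counted.

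Pairs of 1 Dox and 1 control peak that overlap each other and no other peak could be formed for 735 members of each table, in 300 genes. The Dox fold was the lower one in 479 pairs (65.2%, 61.6 to 68.6%), and the median ratio of Dox over control was 0.821, with quartiles of 0.546 and 1.13. In genes under 200 kb the Dox fold was lower in 65.7% of 14176 pairs, with a median ratio of 0.817. The 2 shares differed by less than their counting error. Where the control peak lay within 500 nt of the gene's 5′ end the median ratio was 0.578 over 28 pairs, against 0.813 between the ends and 0.98 over 43 pairs at the 3′ end. The intervals of the share with the lower Dox fold, 55.1 to 89.3% at the 5′ end and 62 to 69.4% between the ends, overlap.

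Tns3, a tensin of focal adhesions, had 6 Dox and 5 control peaks, and a peak at about 99% of its interval had an FDR given as 0 in both tables, with a fold of 8.0 in Dox and 12.5 in control. Magi1, a scaffold of cell junctions, had folds of 9.35 in Dox and 28.7 in control at 99.5% of its interval, with log10 FDR of -77.8 in Dox and -290.0 in control. For Ptprg, a receptor-type tyrosine phosphatase, the strongest peak stood at 87.2% with a fold of 10.6 in Dox and 22.5 in control. In these 3 genes the control fold was the higher one, but they were chosen for a low FDR in either table, so no direction is read from them.

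Nuclear regulators held strong peaks near their 3′ ends. Rere, a nuclear corepressor, had a Dox peak at 98.5% of its interval with a fold of 6.09, which spanned 2 control peaks, the first with a fold of 12.8. Arid1b, a subunit of the BAF chromatin remodelling complex, had one at 98.5% with a fold of 9.0 in Dox, against 16.9 for the first of the 2 control peaks it spanned. Overlap of this kind, 1 peak over 2 or more of the other table, was seen for 74 Dox members (5.61%; 8.18% of all Dox peaks) and 25 control members (2.1%; 4.93% of all control peaks).

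For signalling genes the folds of overlapping peaks are given side by side. Igf1r, the receptor of insulin-like growth factor 1, had 6 Dox and 5 control peaks, and its strongest peak in each table, at 97.4% of the interval, had a fold of 8.29 in Dox and 7.85 in control. Rptor, a subunit of mTORC1, had 7 Dox and 5 control peaks, and its strongest, at 99.7%, had a fold of 4.93 in Dox and 10.2 in control. Cacna1a, a calcium channel subunit, had 4 Dox and 5 control peaks, and its strongest, near 98%, had a fold of 3.78 in Dox and 12.9 in control. Itpr1, an inositol trisphosphate receptor, had 5 peaks in each table, and a peak at its 5′ end had a fold of 10.8 in Dox and 25.8 in control. Of these 4 overlapping peaks the Dox fold was the lower one in 3, against 65.2% of all pairs of members. The genes were chosen for a low FDR in either table, so no direction is read from them.

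Adhesion molecules held 37 Dox and 29 control peaks in all. Tenm4, a teneurin, had 10 Dox and 8 control peaks, with a fold of 7.42 in Dox and 21.4 in control at 99.4% of its interval. Ncam1, a neural adhesion molecule, had 5 in each table, with a fold of 15.2 in Dox and 6.0 in control at 98.9%, and of 4.1 in Dox and 11.8 in control at 92.8%. Slit2, a guidance ligand, had 5 Dox and 6 control peaks, and Robo1, the gene of its receptor, also had 5 Dox and 6 control peaks. Gpc3, a glypican, had 2 Dox and 1 control peak, and Ext1, a heparan sulfate polymerase, 4 in each table. Rbfox2, a splicing factor, had 4 peaks in each table, and the ubiquitin ligase genes Nedd4l and Mid1 had 1 Dox and 2 control peaks each.

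The peaks with the highest folds at a log10 FDR of -5 or lower, chosen in 1 table, are given with the overlapping peak of the other. The highest control fold, 80.0, belonged to a peak of Tenm3, a teneurin, at 99.8% of its interval, and it overlapped 2 Dox peaks with folds of 4.0 and 7.59. Megf11 had a peak with the same midpoint in both tables, with a fold of 15.2 in Dox at a log10 FDR of -2.86, against 61.5 in control at -15.0. Pdzrn4 had a peak centred 628 nt from the start in Dox and 568 nt from it in control, with a fold of 14.1 in Dox at a log10 FDR of -3.01, against 49.2 in control at -11.9. In the Dox table the highest fold, 31.5, belonged to a peak of Myo18b, an unconventional myosin, which overlapped 2 control peaks with folds of 23.4 and 4.51. Cdh20, a cadherin, had the same midpoint in both tables with a fold of 29.3 in Dox and 8.92 in control. Overlapping peaks of Tmem132c had folds of 29.3 in Dox and 32.0 in control, and those of Hydin, a protein of motile cilia, 27.1 in Dox and 15.2 in control. Choosing a peak for its high fold in 1 table fixes in part which table is higher, so no direction is read from these.

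Peaks without a counterpart made up a larger share of the members than of all peaks. No control peak shared an exonic nucleotide with 472 Dox members (35.8%, 33.2 to 38.4%), against 29.1% of all Dox peaks. No Dox peak did so with 273 control members (22.9%, 20.6 to 25.4%), against 19.3% of all control peaks. With both tables first limited to a log10 FDR of -5 or lower the order turned, with 25.6% of Dox (22 to 29.4%) and 28% of control members (24.6 to 31.7%) unmatched. The same limit left 22.3% of Dox and 21% of control peaks unmatched over all peaks, and 22.3% of Dox and 19.8% of control peaks in genes under 200 kb. In genes under 200 kb the unlimited shares were 28.5% of Dox and 18.2% of control peaks. Over classes of gene length the Dox share was higher in each longer class, up to 32.9% at 100 to 200 kb, and the control share reached 19.9% there.

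**Figure D3:**
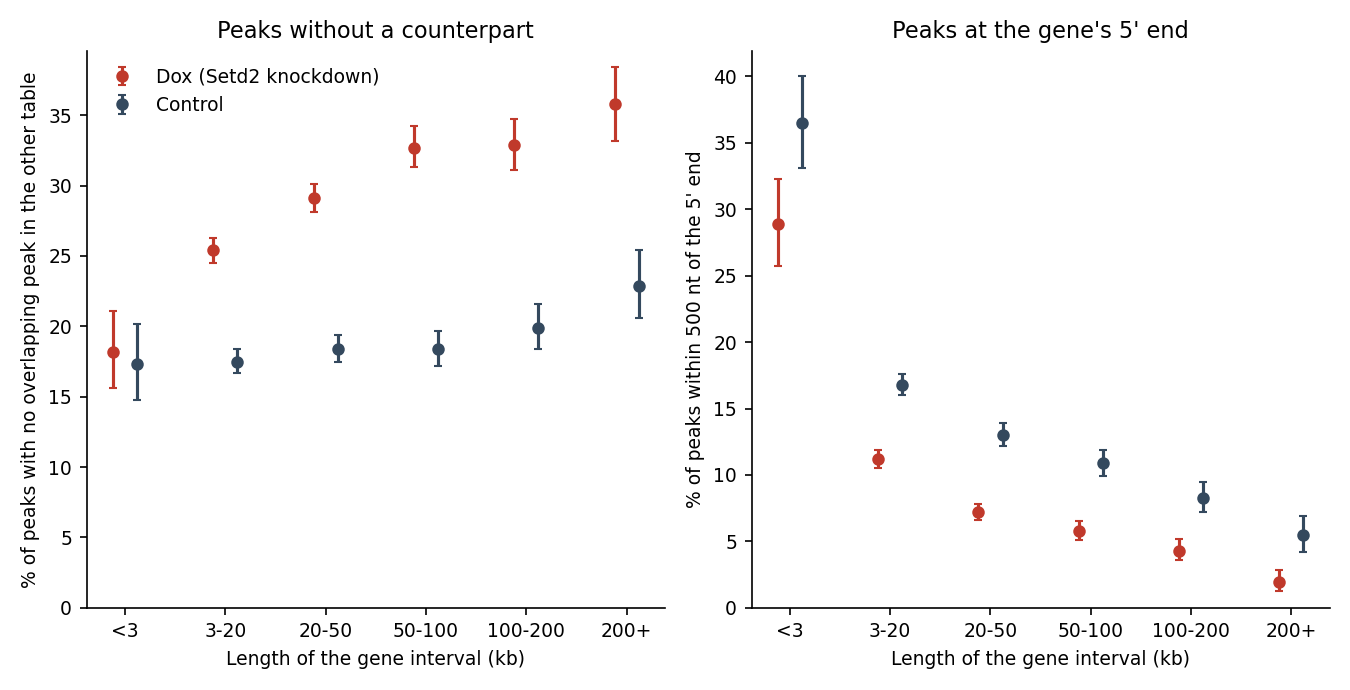
Share of peaks that overlap no peak of the other table (left) and share of peaks within 500 nt of the 5′ end (right), in percent, by length of the gene interval in kb, with Dox left of control in each class and bars for exact 95% intervals. Genes of 200 kb or more stand at 35.8% (Dox) and 22.9% (control) on the left and at 1.97% (Dox) and 5.46% (control) on the right.

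The share without a counterpart differed with the strength of the peaks. A log10 FDR above -5 was held by 58.3% of Dox members and 46.7% of control members, against 41.5% of Dox and 34.6% of control peaks in genes under 200 kb. Of those weak members 53.2% in Dox and 41.2% in control had no counterpart, close to 52.1% of Dox and 39.2% of control peaks in shorter genes. Of the members at -5 or less, 63 Dox peaks (11.4%, 8.9 to 14.4%; 11.6% of all such Dox peaks) and 44 control peaks (6.93%, 5.08 to 9.19%; 7.56% of all such control peaks) had none. With the other table unlimited, the members of these 2 classes of FDR thus did not stand above the other peaks by more than counting error. Below -50 a counterpart was found for all 63 Dox and all 124 control members, counts that allow shares without one of up to 5.69% in Dox and 2.93% in control. With both tables limited to -5 or lower, 28% of control members (24.6 to 31.7%) had no counterpart, against 19.8% in genes under 200 kb. For Dox members the share was then 25.6% (22 to 29.4%), against 22.3%. The cause of the excess was not tested.

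Most very long genes with peaks in 1 table only had no strongly called peak. The same shares were not counted for one-table genes of other lengths, so nothing particular to very long genes is read from them. A log10 FDR of -5 or lower was reached in 8 of the 53 Dox-only genes and 11 of the 50 control-only genes, and 39 of the Dox-only and 44 of the control-only genes had a single peak. All were named from the position of their Ensembl identifier, so another transcript inside the interval may be the source of a peak. Among those in Dox only, an identifier placed in Itpr2, an inositol trisphosphate receptor, had 1 peak (fold 5.91, log10 FDR -16.2). Nsmce2, placed by location only, encodes a SUMO ligase of the SMC5/6 complex and had 3 Dox peaks, the strongest at a log10 FDR of -11.5 (fold 2.32). Tmem135 had 1 (fold 3.71, log10 FDR -7.51). Atp2b2, a calcium pump of the plasma membrane, had 5 Dox peaks, of which 1 passed a log10 FDR of -5, and no control peak. In control only, Epha5, an ephrin receptor, had 1 peak (fold 48.0, log10 FDR -12.2). Camkmt, a calmodulin lysine methyltransferase, had 1 (fold 11.7, log10 FDR -9.61), and Mdga2, a membrane-anchored adhesion protein, 1 (fold 22.1, log10 FDR -9.37). Zbtb20 and Naaladl2 in Dox only, and Plcb1 and Hdac9 in control only, ranked among them too, but all their peak midpoints lay inside a shorter RefSeq gene, so the very long gene may not be the source.

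In percent of the interval, more of the members than of the peaks in shorter genes lay in the last 10%. A step of 10% spans more nucleotides in a longer gene, so these shares are no like-for-like measure. Within 1000 nt of the 3′ end the share of members was lower than over all named genes, as given below. The last 10% of the interval held 638 Dox members (48.4%, 45.6 to 51.1%) and 568 control members (47.7%, 44.9 to 50.6%), against 35.9% of Dox and 32.9% of control peaks in genes of 20 to 200 kb. The first 10% held 115 Dox members (8.72%) and 160 control members (13.4%), against 11.1% of Dox and 18.2% of control peaks in those shorter genes. No step of 10% of the interval between these held more than 10.4% of Dox or 11.4% of control members. In nucleotides, 33.4% of Dox and 32.9% of control members lay within 10000 nt of the 3′ end, and 55.2% of Dox and 55% of control members within 50000 nt.

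**Figure D4:**
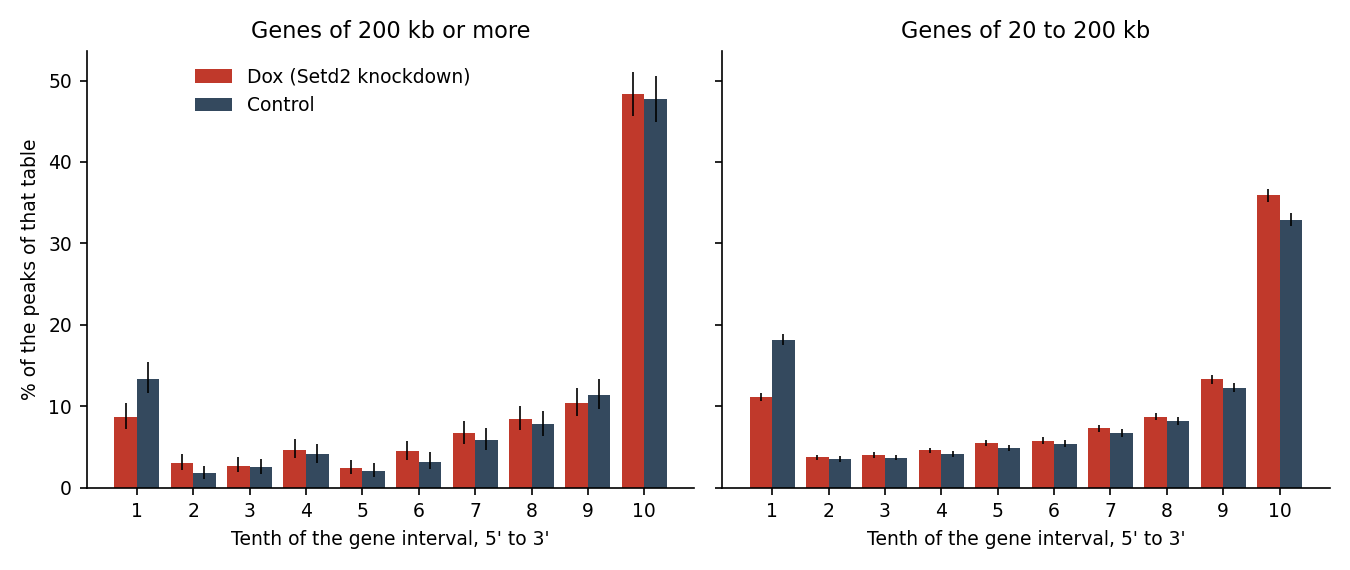
Share of peaks, in percent of each table's peaks in that length class, in steps of 10% of the gene interval from 5′ to 3′, for genes of 200 kb or more (left) and of 20 to 200 kb (right), with Dox left of control and bars for exact 95% intervals. The last 10% holds 48.4% of Dox and 47.7% of control members, against 35.9% of Dox and 32.9% of control peaks in the shorter genes.

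Peaks at the very 5′ end were rarer than in other genes, and rarer in Dox than in control. Within 500 nt of the 5′ end lay 26 Dox members (1.97%, 1.29 to 2.87%; 8.4% of all Dox peaks of named genes) and 65 control members (5.46%, 4.24 to 6.91%; 13.9% of all control peaks of named genes). Within 1000 nt of the 3′ end lay 84 Dox members (6.37%; 16.3% of all Dox peaks of named genes) and 67 control members (5.63%; 14.6% of all control peaks of named genes). A fixed window covers a smaller part of a longer gene, so these 4 shares are no like-for-like measure against shorter genes.

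Control members at the 5′ end lacked a Dox peak more often than those elsewhere. No Dox peak overlapped 35 of the 65 (53.8%, 41 to 66.3%), against 21.3% of those between the ends and 19.4% of those at the 3′ end. In the reverse direction 4 of 26 Dox members at the 5′ end (15.4%, 4.36 to 34.9%) had no control peak, against 35.7% between the ends and 42.9% at the 3′ end. The same order held for control members past a log10 FDR of -5, with 9 of 31 at the 5′ end (29%, 14.2 to 48%) and 34 of 576 between the ends (5.9%, 4.12 to 8.15%). In genes under 200 kb 37% of control peaks at the 5′ end had no Dox peak, against 15.7% of those between the ends, and past a log10 FDR of -5 the shares were 20.2% at the 5′ end and 5.39% between. Dox peaks of those genes had no control peak in 14.7% of cases at the 5′ end, 29.7% between and 30.1% at the 3′ end, so the order at the 5′ end was the same there.

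By gene, 26 very long genes had a 5′ peak in Dox and 64 in control, 22 of them in both. Of the 42 genes with one in control but not in Dox, 35 had a Dox peak with its midpoint elsewhere along the gene. Such a Dox peak can still overlap the 5′ control peak, as in Exoc4 below, so the 5′ peak was not absent in all of them. Pitpnc1 had its 5′ peak in both tables, at a fold of 7.7 in Dox and 11.8 in control and a log10 FDR of -18.2 in Dox and -48.4 in control. Cers6 had folds of 10.8 in Dox and 24.2 in control there, and Tbc1d22a had 1.85 in Dox and 5.93 in control. Of the genes printed above whose control peak had no counterpart, Fam172a had a fold of 13.5 in control, Kif16b of 5.33 and Vps13d of 6.56, and the log10 FDR was -2.6 for both Kif16b and Vps13d. Vps13d still had 10 Dox peaks elsewhere, Kif16b 4 and Fam172a none.

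Other strong control peaks at a 5′ end belonged to Vti1a, a SNARE of the Golgi (fold 12.4, log10 FDR -32.1), to Smyd3, a lysine methyltransferase (fold 10.8 in the overlapping Dox peak and 8.2 in control), and to Wwox, an oxidoreductase at a common fragile site (fold 7.38). The Vti1a peak overlapped a Dox peak that was centred 64951 nt from the start and had 7 exonic blocks. Exoc4, a subunit of the exocyst, likewise had a control peak centred 145 nt from the start, with a fold of 18.5, that overlapped a Dox peak centred 16906 nt from it, with a fold of 3.45. In these 2 genes a Dox peak thus shared exonic sequence with the 5′ control peak, under different bounds.

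Members crossed a splice junction about as often as all peaks, but over much longer introns. Their genes were chosen for long intervals, which leave more room for long introns, so that difference is set in part by the choice. More than 1 exonic block was given for 577 Dox members (43.7%, 41 to 46.4%; 42.7% of all Dox peaks) and 491 control members (41.2%, 38.4 to 44.1%; 41.2% of all control peaks). The longest stretch left out between the blocks of a spliced member had a median of 5314 nt in Dox and 5747 nt in control, against 1656 nt in Dox and 1504 nt in control in genes under 200 kb. It was 50000 nt or more in 58 Dox and 49 control members and 100000 nt or more in 20 Dox and 17 control members, against 58 Dox and 60 control peaks with 50000 nt or more, and 8 Dox and 7 control peaks with 100000 nt or more, in all genes under 200 kb. Such a peak is drawn on the spliced transcript and has no block inside the intron. The 58 Dox members with 50000 nt or more left out had a median exonic length of 286 nt over a median span of 116964 nt.

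**Figure D5:**
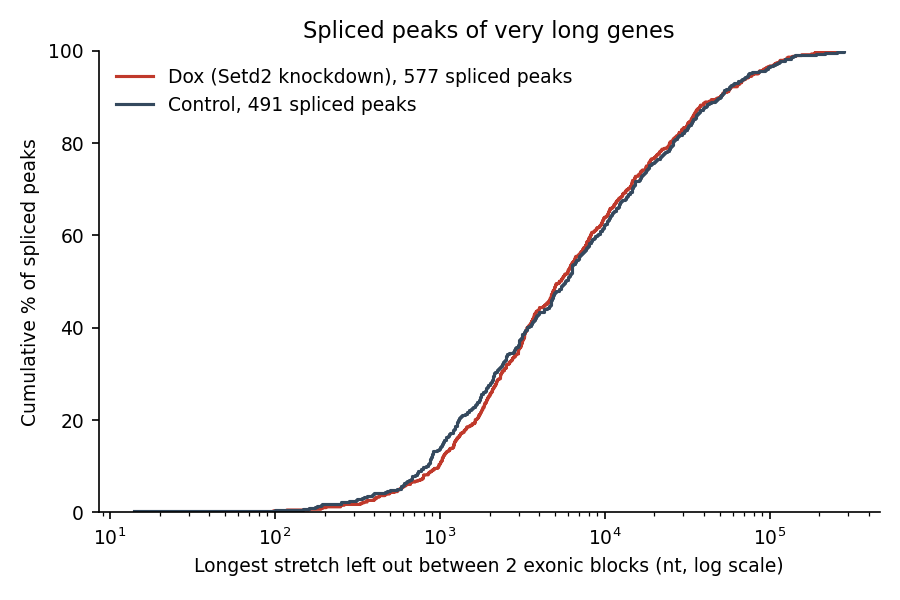
Cumulative share, in percent, of the spliced members against the longest stretch left out between 2 exonic blocks, in nt on a log scale, for 577 Dox and 491 control peaks. The 2 curves run close together, with medians of 5314 nt in Dox and 5747 nt in control.

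Spliced members were shared between the tables more often than members in 1 block. Of the spliced ones 28.2% in Dox (24.6 to 32.1%) and 18.7% in control (15.4 to 22.5%) had no counterpart, against 41.6% in Dox (38 to 45.2%) and 25.9% in control (22.6 to 29.3%) of those in 1 block. The order was the same in genes under 200 kb, with 20.3% in Dox and 13.2% in control of the spliced peaks and 35.4% in Dox and 22.1% in control of those in 1 block. Spliced members were also more strongly called, with a median log10 FDR of -5.57 in Dox and -8.15 in control, against -3.43 in Dox and -4.46 in control for those in 1 block, and the part of that difference in the overlap was not tested. Identical bounds and blocks in both tables were given for 49 pairs.

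The longest stretch left out was 283122 nt, in Cmss1, where both tables gave the same 4 blocks over chr16:57316186-57606825. The fold there was 4.93 in Dox and 8.05 in control, and the log10 FDR -91.5 in Dox and -208.0 in control. Cadm1, an adhesion molecule, had a control peak that starts 5′ of an intron of 257465 nt, with a fold of 4.75, a log10 FDR of -3.64 and no Dox peak. Dip2c had a 5′ control peak over 216038 nt with a fold of 17.2, and the overlapping Dox peak, in 1 block, had 13.0.

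The longest genes of all had few peaks. The 16 genes of 1000 kb or more with a peak held 33 in Dox and 27 in control, of which 14 in Dox (42.4%) and 16 in control (59.3%) had a log10 FDR of -5 or less, against 41.7% of Dox and 53.3% of control members. Dmd had 1 peak in each table, at 98.9% of the interval in Dox with a fold of 1.77 and near the 3′ end in control with a fold of 2.26, and the peaks did not overlap. Cntnap2, a neurexin-related adhesion protein, likewise had 1 in each table, at 97.5% in Dox and 99.9% in control, without overlap. Ptprd, a receptor-type phosphatase, had the same midpoint in both, at 43.4%, in Dox (fold 3.5, log10 FDR -16.4) and in control (fold 2.54, log10 FDR -6.3). Ptprd was placed by location only, so this peak may belong to another gene. Macrod2, an enzyme that removes ADP-ribose, had a peak near its 5′ end in both tables, with folds of 5.42 in Dox and 7.69 in control. Dlg2, a synaptic scaffold, had 1 control peak (fold 22.1, log10 FDR -4.83), and Dpp10 had 1 Dox peak (fold 3.25, log10 FDR -1.6). The identifiers of Dlg2 and Dpp10 were placed by position and strand, so their peaks may belong to another transcript inside the interval.

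Fto, which encodes a demethylase acting on m6A and related marks, is itself a gene of 355067 nt with 3 Dox and 5 control peaks. Its strongest peak, 27.1% along the interval, had a fold of 10.3 in Dox and 7.38 in control, and its log10 FDR was -82.0 in Dox and -75.4 in control. The Dox peak had 4 blocks and also overlapped a second control peak, with a fold of 4.18. A control peak centred 225 nt from the start left out an intron of 74115 nt and had a fold of 13.5, a log10 FDR of -2.31 and no Dox peak. Near the 3′ end the shared peak had a fold of 1.78 in Dox and 1.97 in control.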

How the data were processed

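m6A-seq of 8 libraries (IP and input, Dox and control, 2 replicates each) had been processed by the submitters with FastQC 0.11.5 and TopHat2 2.1.1 against mm10, per the submitters' processing notes. The deposited tables are named after exomePeak, a peak caller that works on transcripts, and its settings are not given in the sources. Per the file headers, the deposited tables give each peak's p-value, its fold (a ratio of IP over input) and 2 scores, the log10 of its p and of its FDR.

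Identifiers were placed in the RefSeq protein-coding gene holding most, and at least 50%, of their peak midpoints. An identifier tied between genes was left out, and for 46 such identifiers a very long gene was among those tied. Of 13110 identifiers 11055 got a gene, 482 of them a very long one. Of several in the same gene only that with the highest peak number stayed, which left out 41 identifiers with 76 peaks. RefSeq's start table gave no strand for 106 member genes, which were placed by location. Among the genes named, these include Cacna1a, Cadm1, Ext1, Itpr1, Megf11, Myo18b, Naaladl2, Ncam1, Nedd4l, Nsmce2, Ptprd, Rbfox2, Smyd3 and Wwox. Without the strand, 34 of 361 genes (9.42%) would have been placed on the opposite one. For 23 identifiers, with 41 peaks, all midpoints also lay in a shorter RefSeq gene.

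Peaks were shared when they had at least 1 exonic nucleotide in common on 1 strand, a call tested on simulated peaks. Positions are midpoints of the exonic length, and coordinates are 1-based. The genes named were the 8 with most peaks, the 6 longest, the 5 Dox-only and 5 control-only ones of lowest FDR, the 5 with the highest fold in each table at a log10 FDR of -5 or less, 4 with the largest intron left out, 4 with the strongest 5′ peak, Fto and 2 per list. A gene that the rule takes is not reported here. Members, lists and this rule were chosen with earlier results of these data known. Python 3.11.15, numpy 2.4.6, pandas 2.3.3, scipy 1.17.1 and matplotlib 3.10.9 were used.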

Additional observations from a re-analysis of the deposited data

How the results depend on the processing

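Leaving out a replicate was not possible with pooled replicates, and the depth behind a peak is unknown. No paired analysis was possible because both replicates of a condition share 1 table. The order of the percentages without a counterpart turned between the tables when weak or low-fold peaks were left out of both, and the cause was not tested. Limiting both tables to a log10 FDR of -5 or less left 551 Dox and 635 control peaks and 201 genes with both. It gave 25.6% of Dox and 28% of control peaks without a counterpart and 55.2% of Dox and 49.6% of control peaks spliced. A fold of at least 4 left 610 Dox and 776 control peaks, with 37.2% of Dox and 47.2% of control peaks without a counterpart and 7.73% of control peaks at the 5′ end. The authors' shorter lists (p of at most 1e-05, fold of at least 2) left 620 Dox and 684 control peaks and 214 genes with both, with 26.6% of Dox and 26.8% of control peaks without a counterpart and 53.9% of Dox and 47.4% of control peaks spliced. Genes of 150000 nt or more gave 2112 Dox and 1917 control peaks and 564 genes with both, and 300000 nt or more gave 602 Dox and 543 control peaks and 154 such genes. A 5′ window of 1000 nt held 3.03% of Dox and 6.97% of control peaks, and 500 nt after any RefSeq start, an alternative chosen after seeing the data, 3.51% of Dox and 8.47% of control peaks. The other 61 values moved by less than their interval or, for counts, by less than 1.5 times. They include sharing by 50% of the shorter peak, leaving out the 10 genes with most peaks, and 3 other ways of assigning identifiers, chosen after seeing the data: strand known, no shorter gene, every identifier.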
